A study of Homo sapiens with 6 samples.

Results

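The chemokine genes CXCL1, CXCL2, CXCL3, CXCL5, CXCL6, CXCL8, CXCL12, CCL2 and CCL20 and the atypical chemokine receptor gene ACKR3 were followed in LX-2, an established line of human hepatic stellate cells. These 10 genes were taken by symbol from the 60780 rows of the count table, of which 60605 carried an Ensembl identifier, and each symbol matched 1 such row. RNA was sequenced from LX-2 cells held for 24 h in medium conditioned by HCT116 colorectal carcinoma cells. The HCT116 cells carried either an empty lentiviral vector (Vector-CM, n = 3) or a lentiviral construct overexpressing FGFBP1, a secreted carrier that releases fibroblast growth factors from the matrix (FGFBP1-CM, n = 3). The study places CXCL5 downstream of FAP in stellate cells, so the comparison asks whether CXCL5 and its relatives differ after exposure to the 2 media. Both media came from lentivirus-infected, puromycin-selected tumor cells, and LX-2 is a cultured line rather than stellate cells of a liver. Nothing in the labels says that replicates came from separate cultures, so p-values measure the spread between these libraries, which may be technical.

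Chemokines are small secreted proteins that direct cell movement by binding G protein-coupled receptors on target cells. The CXC chemokines with a Glu-Leu-Arg motif (CXCL1, CXCL2, CXCL3, CXCL5, CXCL6 and CXCL8) bind CXCR2 and attract neutrophils and other myeloid cells, and their genes are classical targets of NF-kB. CXCL12 lacks that motif, binds CXCR4 and retains hematopoietic and tumor cells in stromal niches, and ACKR3 takes up CXCL12 without activating G proteins. CCL2 attracts monocytes through CCR2, and CCL20 attracts CCR6-bearing lymphocytes and dendritic cells. Activated stellate cells are a known source of several of these factors in the injured liver.

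Of the 10 genes, 6 lie together on chromosome 4 (GENCODE release 29, GRCh38). In the order CXCL8, CXCL6, CXCL1, CXCL5, CXCL3 and CXCL2 they span 359 kb, from base 73740506 to base 74099293. Another 10 annotated genes in that stretch, 3 of them protein coding, had at most 9 counts in any library. CXCL12 lies on chromosome 10 (44370165 to 44386493, minus strand), ACKR3 and CCL20 on chromosome 2 (236567787 to 236582358 and 227805739 to 227817564, plus strand) and CCL2 on chromosome 17 (34255218 to 34257203, plus strand). All 10 are annotated as protein coding.

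The promoters of the 6 clustered genes are shown because these genes share a sequence there that can be read directly. RefSeq (GRCh38.p14) gave the 250 bases before the start for 8 of the 10 genes, namely all but ACKR3 and CCL2. Each line is 30 bases of the gene's own strand, 5′ to 3′, with the shared 9-base core GGAATTTCC in capitals. The windows are chr4:73869305-73869334 (CXCL1, plus), chr4:74099253-74099282 (CXCL2, minus), chr4:74038748-74038777 (CXCL3, minus), chr4:73998748-73998777 (CXCL5, minus), chr4:73836579-73836608 (CXCL6, plus) and chr4:73740468-73740497 (CXCL8, plus).
CXCL1: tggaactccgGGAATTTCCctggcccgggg
CXCL2: tggagctccgGGAATTTCCctggcccggga
CXCL3: tggagctccgGGAATTTCCctggcccggcc
CXCL5: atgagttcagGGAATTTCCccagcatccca
CXCL6: ctgagttcagGGAATTTCCccagcatccca
CXCL8: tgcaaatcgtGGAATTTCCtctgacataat

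The lines fall into 3 kinds. CXCL1, CXCL2 and CXCL3 were identical at 27 or 28 of 30 bases to each other, and CXCL5 and CXCL6 at 29 of 30, the core included. CXCL8 stood alone, with 14 to 17 of 30 bases shared with any other line. Over the 250 bases, alignment gave 85.3% identity between CXCL5 and CXCL6 and 81.4% between CXCL1 and CXCL3, while CXCL8 shared 43.9% to 47.9% with the other 5. In CXCL2, CXCL3, CXCL5 and CXCL6 all 30 printed bases also lie in an exon of a longer annotated GENCODE transcript, whereas none do in CXCL1 and CXCL8.

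The core GGAATTTCC was present on either strand in 145 of 35116 promoters of the same length (0.413%). It was chosen after these promoters had been read, so its presence in 6 of 8 is a description. The more general NF-kB consensus, which overlaps the core in 5 genes, matched in CXCL1, CXCL2, CXCL3, CXCL5, CXCL6 and CCL20 and in 9.96% of all promoters. The AP-1 motif TGANTCA, searched like the other motifs on both strands, matched only in CXCL8, 137 to 131 bases before the start, and in 6.57% of all promoters. The EGR1 motif GCGNGGGCG matched in 0 of 8 windows and in 8.41% of all promoters, which says only that these letters are not in these windows. A TATA-like ATAAA, looked for only on the gene's own strand and close to the start, began 31 to 28 bases before the start in 7 of 8, all but CXCL12, and in 4.65% of all promoters.

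**Figure D1:**
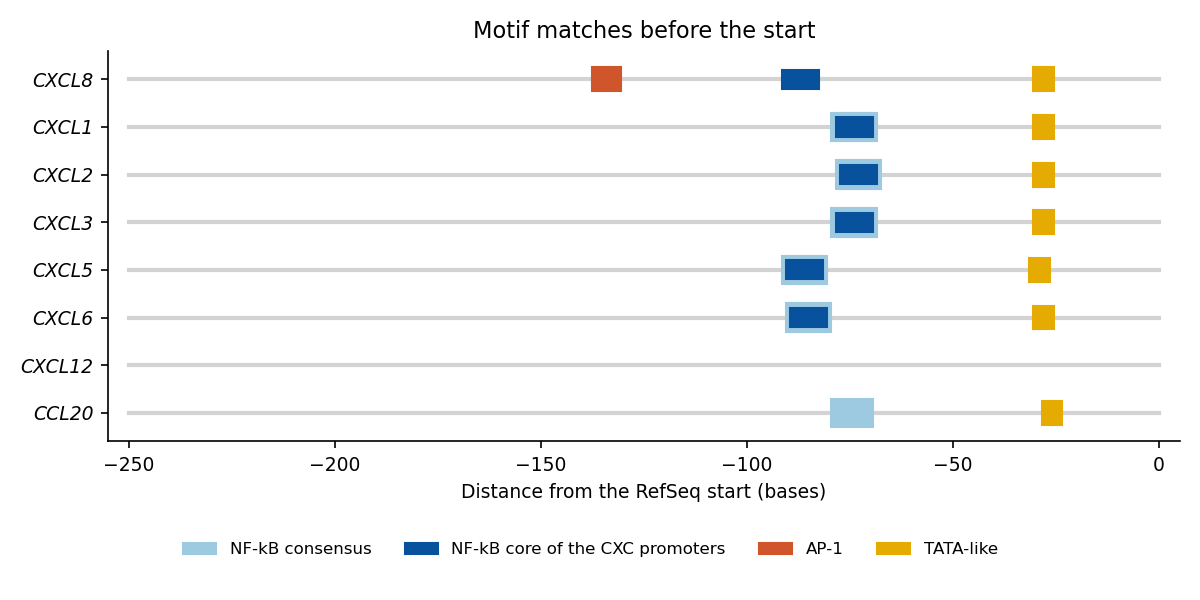
Motif matches in the 250 bases before the RefSeq start of 8 genes, with distance from the start in bases on the horizontal axis and one gray line per gene. The core sits between 91 and 69 bases before the start in the 6 clustered genes, CXCL8 alone has an AP-1 match, and CXCL12 has none of the plotted motifs.

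The libraries held 14003780 to 18508113 counts. FGFBP1-CM replicate 1 stood apart: a chi-square test of its counts against the other FGFBP1-CM libraries gave 9.41 to 10.2 per degree of freedom, against 2.88 to 5.73 for the other pairs within a group. Results are therefore also given without FGFBP1-CM replicate 1 for the tested genes of the group and for some others. FGFBP1-CM replicate 2 gave 4.49 to 5.53 against the Vector-CM libraries and 4.825 against FGFBP1-CM replicate 3. Fold changes over all tested genes went with GC content (Spearman rho -0.21 across genes, which are not independent replicates). The stellate label was checked against 16 markers. VIM, SPARC, COL1A1, LOX and COL3A1, which other mesenchymal cells also express, had 457, 94.8, 16.6, 16.4 and 5.34 FPKM (fragments scaled to gene length and depth). PDGFRB, TAGLN, COL1A2 and ACTA2 had 3.38, 2.5, 2.03 and 1.5 FPKM. PDGFRA, THY1, DCN, LUM and RGS5 had 0.123 to 0.612 FPKM. DES had 0 to 4 counts, and LRAT, which makes the retinyl esters that quiescent stellate cells store, had 0. Of 14 hepatocyte markers 6 were tested, and ALB, APOB, AFP and FGA passed the threshold as lower in FGFBP1-CM. SERPINA1 (-0.53 on the log2 scale, adjusted p = 0.0690, edgeR) did not pass. Neither did TF, named as the other tested marker (-1.86, adjusted p = 0.0557, edgeR). The summed level of the hepatocyte list was 41.8 to 44.7 CPM (counts scaled to library size) in Vector-CM and 18.5 to 28.4 in FGFBP1-CM. Most of it was SERPINA1, with 28.3 to 30.6 CPM in Vector-CM and 16.2 to 25.4 in FGFBP1-CM. None of the 14 was at 0 in all libraries. The part of the hepatocyte list in the results that follow was not tested.

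CXCL8 was by far the most abundant of the 10 genes in both media, and no tested gene of the group passed the threshold between them. Compared per length, CXCL8 had 361 ± 32.0 FPKM (SD, n = 6), rank 38 of 60605 genes, and CXCL1 followed at 28.0 ± 4.14. CXCL12 had 18.3 ± 2.31 FPKM and CXCL5 had 10.4 ± 0.960. Each of these 4 ranges over the 6 libraries was clear of the next.

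CXCL2 (6.95 ± 0.837 FPKM) and CXCL6 (5.25 ± 1.18) were next, and their ranges overlapped. CCL2 (2.62 ± 0.490 FPKM) and CXCL3 (2.52 ± 0.400) overlapped as well. ACKR3 had 0.900 ± 0.289 FPKM and CCL20 had 0.284 ± 0.133, and these too overlapped. All values are SD over n = 6. The mean of CXCL8 was 12.9 times that of CXCL1, the widest step in the order.

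**Figure D2:**
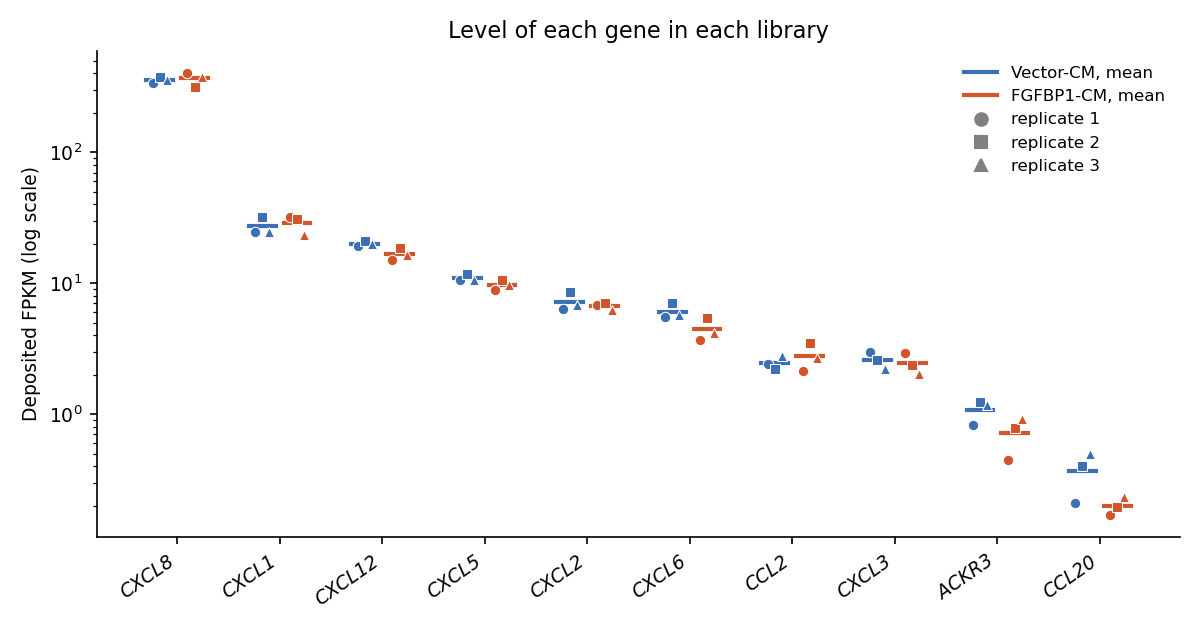
Deposited FPKM on a log axis for the 10 genes, ordered by their mean over 6 libraries, with points for single libraries and bars for the mean of each group of 3. CXCL8 lies between 317 and 404 in every library, while CCL20 stays below 0.5.

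The groups were compared by the edgeR quasi-likelihood test on the counts of 16707 genes. At an adjusted p under 0.05, 20 genes (0.120%) passed, and 0 of the 9 tested chemokine and ACKR3 genes did. The Wald test of DESeq2 gave an adjusted p to 6 of the 9, of which 1 passed (CXCL12), as did 5.66% of all genes with an adjusted p there. With limma on log2(FPKM + 1) 0 of the 9 passed, against 0.00599% of all genes. At an unadjusted p under 0.05 there were 4 of 9 (CXCL12, CXCL6, CXCL5 and ACKR3), all lower in FGFBP1-CM, where 21.7% of all tested genes met this rule in either direction and 10.7% as lower. The CPM of the groups did not overlap for 3 of 9 (CXCL5, CXCL6 and CXCL12), all lower, against 26.0% of all genes in either direction and 13.2% as lower. The median log2 fold change of the 9 genes was -0.13, beside 0.00 over all genes. FAP itself, the gene the study places before CXCL5, had a log2 fold change of 4.52 in this fit. The study drew that step from LX-2 cells overexpressing FAP, by RNA and by secreted CXCL5 protein, and from FGFR1 knockdown with FAP overexpressed. Here only RNA was read, after 24 h in conditioned medium, which is another system and measure.

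**Figure D3:**
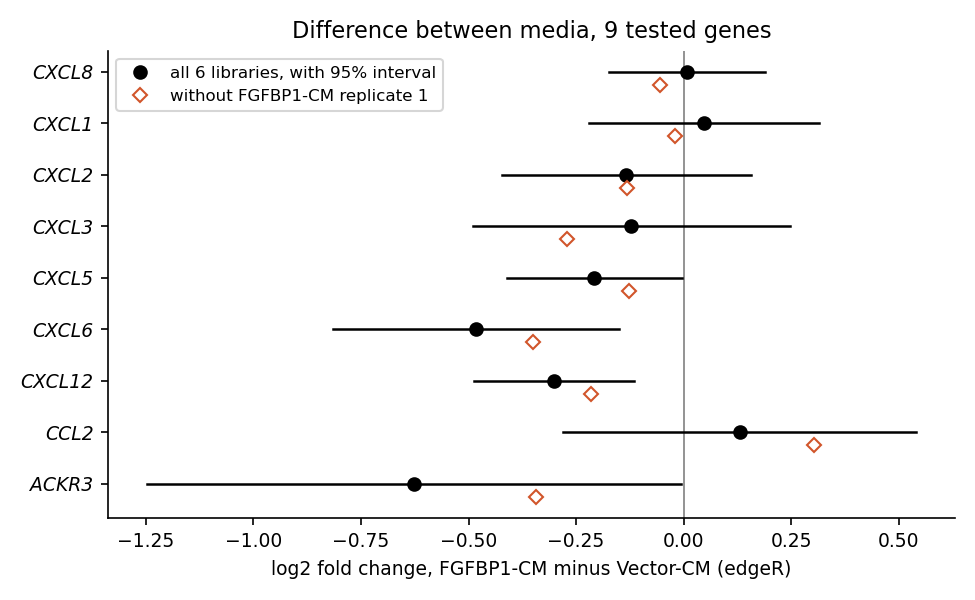
Log2 fold change of FGFBP1-CM against Vector-CM for the 9 tested genes by edgeR, with 95% intervals (black) and the value without FGFBP1-CM replicate 1 (open diamonds). The intervals of CXCL12 and CXCL6 lie clearly below 0, those of CXCL5 and ACKR3 end just short of it, and the remaining 5 span it.

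CXCL5, a neutrophil-attracting ligand of CXCR2, was slightly lower in FGFBP1-CM and did not pass the threshold. Its level was 26.0, 28.8 and 26.6 CPM in Vector-CM replicates 1 to 3 and 21.1, 25.9 and 23.5 CPM in FGFBP1-CM replicates 1 to 3. The groups were only just separate, with Vector-CM replicate 1 and FGFBP1-CM replicate 2 nearly equal, and they overlapped by FPKM. CXCL5 thus differed by -0.21 on the log2 scale (SE 0.0948, 95% interval -0.41 to 0.00, adjusted p = 0.223, edgeR), from 385 to 465 counts per library. As a percentage that interval ran from -24.8% to -0.204% with all 6 libraries. Leaving out FGFBP1-CM replicate 1 gave -0.13 (adjusted p = 0.530, edgeR), and leaving out FGFBP1-CM replicate 2 gave -0.28 (adjusted p = 0.11, edgeR). A correction for GC content and length gave -0.30 (adjusted p = 0.116, edgeR), so CXCL5 did not pass in any of these.

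CXCL6, the closest relative of CXCL5, was the CXCR2 ligand with the largest difference. CXCL6 had 11.2, 14.5 and 11.9 CPM in Vector-CM and 7.39, 11.1 and 8.50 CPM in FGFBP1-CM, replicates 1 to 3. Every FGFBP1-CM library was below every Vector-CM library, FGFBP1-CM replicate 2 by the least. CXCL6 differed by -0.48 on the log2 scale (SE 0.154, 95% interval -0.81 to -0.15, adjusted p = 0.111, edgeR). Leaving out FGFBP1-CM replicate 1 gave -0.35 (adjusted p = 0.246, edgeR), whereas leaving out FGFBP1-CM replicate 2 gave -0.66, which passed (adjusted p = 0.0319, edgeR) in a fit where 5.15% of genes did. The call was also made when rarely counted genes were kept (adjusted p = 0.0171, edgeR) and 3.64% of genes passed. That fit took each gene's spread from the trend over all genes (prior degrees of freedom infinite, against 9.32 in the main fit). A pseudogene, PPBPP1, shares 94 exon bases with CXCL6 and had 0 counts.

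CXCL8, or interleukin-8, showed no difference beyond its spread. CXCL8 had 756, 859 and 811 CPM in Vector-CM and 883, 710 and 843 CPM in FGFBP1-CM. Its highest and its lowest library were both FGFBP1-CM, replicates 1 and 2. For CXCL8 the log2 fold change was 0.01 (SE 0.0841, adjusted p = 0.974, edgeR). Its 95% interval of -0.17 to 0.19 in the main fit ran from 11.4% lower to 13.9% higher. Its sign turned in 4 of the alternatives.

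The GRO chemokines CXCL1, CXCL2 and CXCL3, named for growth-regulated oncogene, also did not pass. CXCL1 had 33.8, 44.3 and 34.6 CPM in Vector-CM and 42.3, 42.4 and 31.4 CPM in FGFBP1-CM. The groups overlapped, with high and low libraries in each, and the log2 fold change of CXCL1 was 0.05 (SE 0.124, adjusted p = 0.862, edgeR). CXCL2 had 8.88, 12.1 and 9.70 CPM in Vector-CM and 9.34, 9.85 and 8.63 CPM in FGFBP1-CM. Only Vector-CM replicate 2 stood above the rest, and the log2 fold change of CXCL2 was -0.13 (SE 0.134, adjusted p = 0.598, edgeR). Leaving it out gave -0.0008, and leaving out Vector-CM replicate 1 gave -0.23.

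CXCL3 had 6.70, 5.86 and 4.99 CPM in Vector-CM and 6.38, 5.27 and 4.47 CPM in FGFBP1-CM. The 2 groups overlapped over most of their range. CXCL3 differed by -0.12 on the log2 scale (SE 0.171, adjusted p = 0.716, edgeR), and by -0.27 without FGFBP1-CM replicate 1. It was -0.22 without Vector-CM replicate 3, -0.0037 without Vector-CM replicate 1 and -0.0058 without FGFBP1-CM replicate 3. CXCL2 and CXCL3 have transcripts with an exact stretch of 178 bases in common, so reads that fall inside it cannot be told apart. Over all annotated transcripts, 78 of the 1581 read-length stretches of CXCL2 (4.93%) and of the 2415 of CXCL3 (3.23%) were shared. In the longest coding transcript of each of these 2 genes, 0 stretches were shared. No shared stretch was found for the other 8 genes.

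The CXCR2 ligands were also summed by FPKM over the 6 tested genes, since they act on 1 receptor. PPBP, the seventh ligand, had 0 counts in all libraries, which allows up to 0.217 CPM. The sum was 386, 441 and 403 FPKM in Vector-CM and 458, 373 and 424 in FGFBP1-CM. FGFBP1-CM held both the highest and the lowest sum. The means of 410 ± 27.9 and 418 ± 42.8 FPKM (SD, n = 3 each) differed by 8.38, which was below the spread between replicates (p = 0.8, exact two-sided permutation test, whose smallest possible p here is 0.1). Leaving out FGFBP1-CM replicate 1 turned the difference to -11.5 and leaving out Vector-CM replicate 1 to -3.63, while it was 31.0 without FGFBP1-CM replicate 2 and 23.7 without Vector-CM replicate 2.

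CXCL8 made up most of this sum. Its share was 87.0%, 85.9% and 87.6% in Vector-CM and 88.2%, 84.9% and 89.3% in FGFBP1-CM. The groups overlapped, and the means differed by 0.601 percentage points (p = 0.7, exact two-sided permutation test). That difference was 1.90 without FGFBP1-CM replicate 2, 0.237 without FGFBP1-CM replicate 1, 0.144 without Vector-CM replicate 2, 0.98 without Vector-CM replicate 3 and -0.332 without FGFBP1-CM replicate 3. CXCL1 added 5.47% to 8.33% of the sum, CXCL5 1.93% to 2.85%, CXCL2 1.46% to 1.94%, CXCL6 0.810% to 1.60% and CXCL3 0.477% to 0.779%. Without CXCL8 the sum was 50.1, 62.0 and 50.1 FPKM in Vector-CM and 54.2, 56.5 and 45.3 in FGFBP1-CM (p = 0.7, exact two-sided permutation test).

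**Figure D4:**
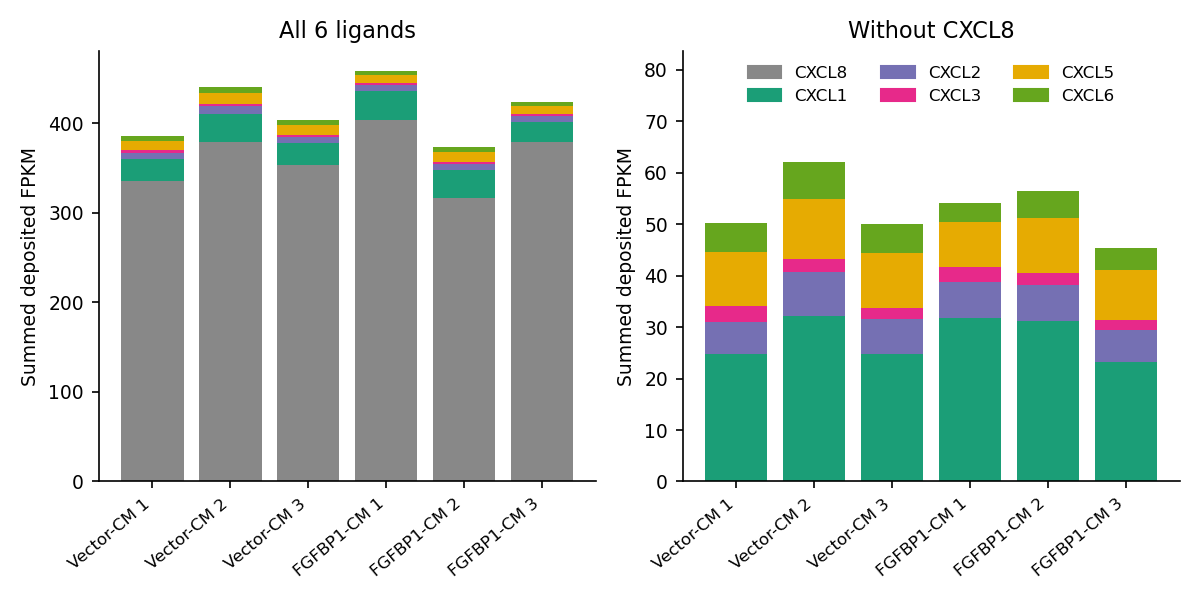
Stacked bars of the summed FPKM of the 6 tested CXCR2 ligands in each library (left) and of the same ligands without CXCL8 (right, on its own axis from 0). CXCL8 fills 84.9% to 89.3% of each bar on the left, and CXCL1 is the largest part on the right.

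CXCL12, the stromal ligand of CXCR4, had the smallest adjusted p of the group. CXCL12 had 116, 130 and 124 CPM in Vector-CM and 88.5, 114 and 98.8 CPM in FGFBP1-CM. All 3 FGFBP1-CM libraries were below all 3 Vector-CM libraries, with FGFBP1-CM replicate 2 only just so. CXCL12 differed by -0.30 on the log2 scale (0.811-fold, SE 0.0859, 95% interval -0.49 to -0.12, adjusted p = 0.0906, edgeR). An adjusted p at or below that value was reached by 696 genes. It was -0.22 when FGFBP1-CM replicate 1 was dropped (adjusted p = 0.184, edgeR) and -0.40 when FGFBP1-CM replicate 2 was (adjusted p = 0.0212, edgeR). In bulk RNA, fewer cells expressing a gene and less RNA per cell cannot be told apart.

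ACKR3, which scavenges CXCL12, was found at a low level. ACKR3 had 1.73, 2.60 and 2.49 CPM in Vector-CM and 0.897, 1.63 and 1.90 CPM in FGFBP1-CM, from 17 to 37 counts per library. FGFBP1-CM replicate 1 was lowest by far, and FGFBP1-CM replicate 3 lay above Vector-CM replicate 1, so the groups overlapped. ACKR3 differed by -0.63 on the log2 scale (SE 0.288, 95% interval -1.25 to -0.01, adjusted p = 0.225, edgeR). Dropping FGFBP1-CM replicate 1 moved this to -0.34 (adjusted p = 0.589, edgeR), by more than 1.5 times.

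CCL2, the monocyte attractant, had 4.80, 4.41 and 5.66 CPM in Vector-CM and 4.17, 6.90 and 5.32 CPM in FGFBP1-CM. Both the highest and the lowest library were FGFBP1-CM. The log2 fold change of CCL2 stood at 0.13 (SE 0.191, adjusted p = 0.730, edgeR), with a 95% interval that reached from 17.7% lower to 45.5% higher. It was 0.30 without FGFBP1-CM replicate 1 and -0.07 without FGFBP1-CM replicate 2.

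CCL20 was near the limit of detection and was removed by the filter on low counts. It had 6, 9 and 12 counts in Vector-CM and 5, 5 and 6 in FGFBP1-CM. The lowest Vector-CM count equaled the highest FGFBP1-CM count. With no filter CCL20 came to -0.87 on the log2 scale (SE 0.479, adjusted p = 0.449, edgeR), so no difference was detectable at this depth.

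**Figure D5:**
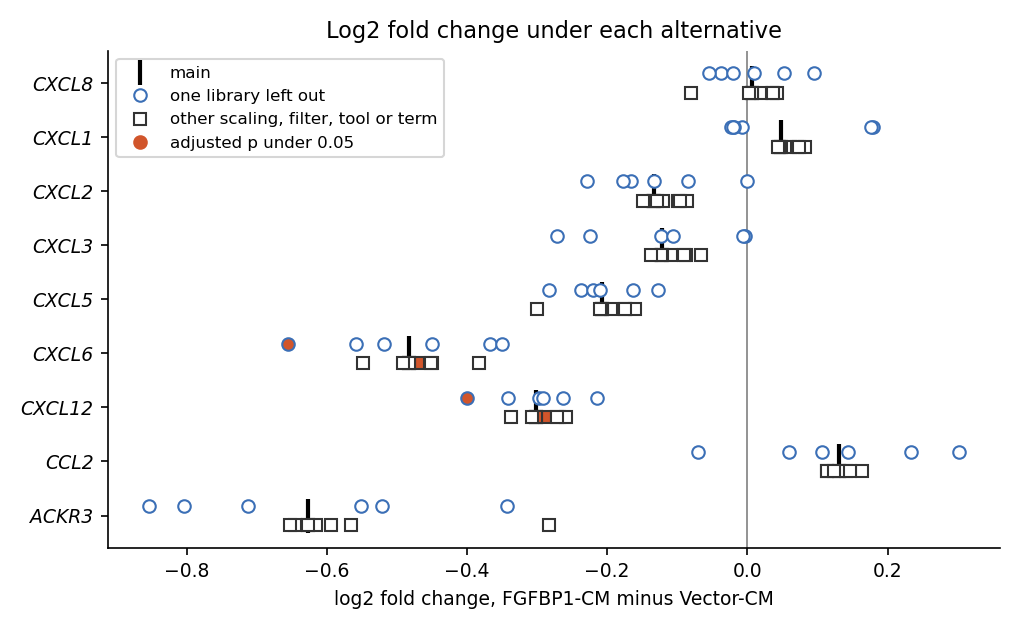
Log2 fold change of each tested gene in the main fit (black bar), with each library left out (circles) and under the other alternatives (squares), where a filled symbol has an adjusted p under 0.05. Only CXCL6 and CXCL12 have filled symbols, and CXCL2, CXCL3, CXCL5, CXCL6, CXCL12 and ACKR3 stay below 0 throughout.

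The libraries ranked alike for several genes. Vector-CM replicate 2 was the highest library for 6 of the 10 genes by CPM, and FGFBP1-CM replicate 1 was the lowest for 6. FGFBP1-CM replicate 1 was at the same time the highest for CXCL8. How often each library was an extreme over all tested genes was not counted, so these counts are not a trait of the 10 genes. The highest CPM exceeded the lowest by 1.24 times for CXCL8 and by 2.90 times for ACKR3 and 3.07 times for CCL20, the genes with the fewest counts.

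The receptors that read these ligands had hardly any counts in LX-2 cells. CXCR1 and CCR6 had 0 counts in every library, CXCR2 had 0 to 2, CCR2 had 0 or 1, and CXCR4 had 0 to 5. Of 22 chemokine receptors other than ACKR3, 15 never exceeded 3 counts and 4 were tested. None of the 4 passed, and their median log2 fold change was 0.16. CCR10 (1.13 ± 0.167 FPKM) and CXCR6 (0.878 ± 0.147 FPKM, SD, n = 6), the receptors for CCL27 and CXCL16, were the most abundant of the list. ACKR4, an atypical receptor, had 0.321 ± 0.111 FPKM and differed by -0.46 on the log2 scale (adjusted p = 0.495, edgeR). CCRL2, an atypical receptor that presents chemerin, had 0.782, 0.506 and 0.876 CPM in Vector-CM and 1.79, 1.00 and 1.47 CPM in FGFBP1-CM. Its groups did not overlap, and its log2 fold change was 0.97 (SE 0.319, adjusted p = 0.118, edgeR) from 7 to 34 counts. For CCRL2, leaving out FGFBP1-CM replicate 1 gave 0.76 (adjusted p = 0.336, edgeR).

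Of 36 further chemokines looked for, 35 had a row, 11 had 0 counts in all libraries, 5 were tested and none passed. All 5 had a log2 fold change below 0, with a median of -0.12 beside 0.00 over all tested genes. CCL5, which attracts T cells and monocytes, was the most abundant of them and had 89.2, 96.3 and 85.9 CPM in Vector-CM and 42.4, 77.0 and 45.8 CPM in FGFBP1-CM. Its groups did not overlap, with FGFBP1-CM replicate 2 close to Vector-CM. CCL5 differed by -0.72 on the log2 scale (SE 0.164, adjusted p = 0.0634, edgeR), and -0.56 without FGFBP1-CM replicate 1 (adjusted p = 0.0689, edgeR). CCL26, CXCL16 and CXCL10 had log2 fold changes of -0.01, -0.12 and -0.42, none past the threshold, and CCL7, with 8 to 16 counts, was not tested.

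Genes that induce chemokines through interleukin-1, TNF and NF-kB were counted from a list of 26, of which 25 were tested. None passed in either direction, and at an unadjusted p under 0.05 there were 3 higher and 5 lower, where 11.1% and 10.7% of all tested genes met these rules. The median log2 fold change was 0.01. The most abundant were FOSL1, an AP-1 subunit, with 212 ± 12.1 FPKM, IRAK1, a kinase of the interleukin-1 pathway, with 90.8 ± 3.18, and JUN with 62.8 ± 2.43 (SD, n = 6), and their log2 fold changes were 0.05, -0.05 and -0.08.

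TNFAIP3 and NFKBIA, NF-kB targets that restrain the pathway, had log2 fold changes of -0.25 and -0.26 (adjusted p = 0.146 and 0.110, edgeR). NFKB2 and RELB, the noncanonical NF-kB subunits, had the smallest adjusted p of the lower genes of this list, as IRAK4 and IL1B had of the higher ones, and these 4 were named after their values were seen. NFKB2 had 134, 135 and 131 CPM in Vector-CM and 106, 118 and 113 CPM in FGFBP1-CM, or -0.25 on the log2 scale (SE 0.0634, adjusted p = 0.0759, edgeR). RELB had 34.9, 34.2 and 38.7 CPM in Vector-CM and 23.7, 31.9 and 29.2 CPM in FGFBP1-CM, or -0.35 on the log2 scale (SE 0.104, adjusted p = 0.0963, edgeR). The groups did not overlap for either gene, as for 26.0% of all tested genes in either direction and 13.2% as lower. Without FGFBP1-CM replicate 1 the adjusted p of NFKB2 and RELB were 0.144 and 0.199 (edgeR). Of the canonical subunits, RELA was also lower without overlap (-0.14 on the log2 scale, adjusted p = 0.2, edgeR). NFKB1 overlapped, with a log2 fold change of -0.0003. IRAK4, a kinase of the interleukin-1 receptor complex, had 22.6, 23.1 and 21.3 CPM in Vector-CM and 39.0, 26.3 and 25.9 CPM in FGFBP1-CM, which did not overlap, or 0.45 on the log2 scale (SE 0.137, adjusted p = 0.102, edgeR). For IRAK4 the value without FGFBP1-CM replicate 1, by far its highest library, is not given. IL1B, which encodes interleukin-1 beta, had 51.0, 60.4 and 48.7 CPM in Vector-CM and 85.7, 67.7 and 57.4 CPM in FGFBP1-CM, which overlapped, or 0.40 on the log2 scale (SE 0.124, adjusted p = 0.104, edgeR). For IL1B, leaving out FGFBP1-CM replicate 1 gave 0.23 (adjusted p = 0.238, edgeR).

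Genes that set the decay of AU-rich chemokine mRNAs were counted from a list of 12, all tested, and none passed. Their median log2 fold change was -0.06, with a range of -0.21 to 0.31. ZFP36L1, an mRNA-destabilizing zinc-finger protein, was the most abundant at 67.5 ± 3.90 FPKM (SD, n = 6) and had a log2 fold change of -0.13. HNRNPD, KHSRP, MAPKAPK2 and CNOT1 had log2 fold changes of -0.02, 0.09, -0.12 and 0.03.

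Of 14 genes for chemokine receptor signaling and uptake, 12 were tested and none passed. Here 9 of 12 had a log2 fold change below 0, with a median of -0.07 beside 0.00 over all tested genes. At an unadjusted p under 0.05 (edgeR) there were 3 lower and 0 higher, where 10.7% and 11.1% of all tested genes met these rules. GNB1 and GNAI2, subunits of the G proteins that chemokine receptors use, had 102 ± 7.50 and 54.4 ± 5.50 FPKM (SD, n = 6) and log2 fold changes of -0.21 and -0.25 (adjusted p = 0.102 and 0.103, edgeR). GNAI3, SH3BP4 and GRK2 had log2 fold changes of -0.06, -0.03 and -0.12.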

How the data were processed

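LX-2 libraries (3 per medium) were grouped by their labels. Paired-end reads were aligned by the authors with HISAT2 2.0.5 and assigned to genes with featureCounts 1.5.0-p3, and the raw counts were deposited. The authors also deposited FPKM, computed from gene length and read count. The submitters' processing notes name build hg18. The annotation release and strand setting are not given in the sources used here, and the methods name both poly(A) selection and ribosomal RNA depletion. Coordinates are from GENCODE release 29 (GRCh38) by Ensembl identifier. Annotation columns (Gene Ontology and KEGG) were not used.

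Groups were tested by edgeR 4.0.16 in its quasi-likelihood mode (R 4.3.3, filterByExpr, TMM), with Benjamini-Hochberg adjustment over 16707 genes and a threshold of 0.05. CPM were computed from the deposited counts and TMM-scaled library sizes, and a count of 0 allows up to 3 counts, or 0.158 to 0.217 CPM, covering counting error only. Summed FPKM and shares were compared by exact permutation tests. The standard error is the log2 fold change divided by the square root of F. The procedure was tested on simulated counts. As alternatives, libraries were scaled by RLE or by size only, genes were kept with 1 count or from a mean of 1 CPM, DESeq2 1.42.0 or limma 3.58.1 on log2(FPKM + 1) or log2(FPKM + 0.1) replaced edgeR, a replicate block was added, and each library was left out. A GC and length correction (loess, span 0.3) was added after the data were seen.

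The members and lists were chosen with earlier results of these data known. All 10 members and all 16 stellate markers are named. Of each other list, the genes past the threshold and the 5 with the highest mean FPKM are named, with exceptions stated. Lists of 19 colorectal epithelial, 12 leukocyte and 10 endothelial markers were also counted. A single marker of these lists is counted but not named.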

Additional observations from a re-analysis of the deposited data

How the results depend on the processing

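The number of genes past the threshold, 20, depended strongly on the processing. It was 38 with RLE scaling, 1382 with no filter beyond 1 count, 11 at a mean of at least 1 CPM, 616 with DESeq2, 1 with limma on either FPKM scale, 50 after GC and length correction, and 4 to 883 with 1 library left out. With the replicate block it was 90. The numbers do not pair the samples (correlations of same-numbered deviations -0.12, -0.02 and 0.15), and the block brought 0 of the 9 genes past the threshold. The number of the 9 past the threshold was 2 with no filter, 1 with DESeq2 and 0 to 2 with 1 library left out. With no filter the prior degrees of freedom were infinite, against 9.32 in the main fit. The calls of that fit therefore rest on a spread taken from the trend over all genes.

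CXCL12 passed with no filter (log2 fold change -0.29, adjusted p = 0.00802, edgeR) and with DESeq2 (-0.30, adjusted p = 0.0385), and CXCL6 with no filter (-0.47, adjusted p = 0.0171, edgeR). With 1 library left out, the log2 fold change of CXCL12 ranged from -0.40 to -0.22 and that of CXCL6 from -0.66 to -0.35, and both passed only without FGFBP1-CM replicate 2. The sign turned for CXCL8 after GC and length correction (-0.0803), and with 1 library left out for CXCL8 (-0.0549 to 0.0945), CXCL1 (-0.0237 to 0.18) and CCL2 (-0.0702 to 0.30). The summed CXCR2 ligands differed by -3.80 in CPM against 8.38 in FPKM. The causes were not tested. Of 132 alternative values of the 9 genes, 118 kept direction and side of the threshold. DESeq2 gave no adjusted p for CXCL3, ACKR3 and CCL2. CCL20 was tested in 5 alternatives and passed in 0. The counts of ACKR3 and CCL20 limit what could be seen for them.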

Other observations

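Markers of other cell types were counted as well. Of 19 colorectal epithelial markers, 11 never exceeded 3 counts, 3 were at 0 in all libraries, and the summed level was 13.7 to 15.0 CPM in Vector-CM and 12.9 to 16.8 CPM in FGFBP1-CM. Its most abundant genes were CLDN4 (1.76 FPKM), CDH17, EPCAM, ELF3 and CLDN3. Of 12 leukocyte markers, TYROBP and CD163 were at 0 in all libraries, and the summed level was 6.54 to 7.42 CPM in Vector-CM and 5.96 to 9.23 CPM in FGFBP1-CM, led by CD14 (1.48 FPKM), FCER1G, LYZ, CSF1R and MARCO. The 10 endothelial markers summed to 146 to 163 CPM in Vector-CM and 127 to 143 CPM in FGFBP1-CM. Nearly all of this was TIE1, with 19.1 ± 1.78 FPKM (SD, n = 6), which differed by -0.24 on the log2 scale (adjusted p = 0.0912, edgeR). Without TIE1 the other 9, led by KDR, TEK, PECAM1 and STAB2, summed to 14.8 to 16.9 CPM in Vector-CM and 13.6 to 16.8 CPM in FGFBP1-CM. Of the 6 endothelial markers tested 3 had a log2 fold change above 0 and 3 below, with a median of 0.02. Of the 16 stellate markers, 14 were tested and 12 had a log2 fold change below 0 with none past the threshold. At an unadjusted p under 0.05 (edgeR) there were 5 lower and 0 higher, where 10.7% and 11.1% of all tested genes met these rules. The summed level of the 16 stellate markers was 3370 to 3600 CPM in Vector-CM and 2590 to 3140 CPM in FGFBP1-CM. Most of it was VIM, with 2465 to 2678 CPM in Vector-CM and 1966 to 2364 CPM in FGFBP1-CM. The sum went in the same direction as CXCL12, CXCL6 and CCL5, and the part of these differences in the chemokine values was not tested.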
